A study of Glycine max with 12 samples.

Results

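Old leaves of soybean (*Glycine max*) were compared with young leaves of plants kept at the normal manganese (Mn) supply of 5 µM. The comparison used 6 of the 12 RNA sequencing libraries of the study, 3 of old leaves and 3 of young leaves, and every library labelled with that Mn level was taken. Both ages came from plants transferred at the fifth leaf stage to renewed nutrient solution with Mn as the sulfate, and the labels name no cultivar, treatment or genetic change that separates them. The remaining 6 libraries, 3 of old and 3 of young leaves at a high Mn supply of 100 µM, served as a second and separate reading of leaf age. The labels do not say which leaf position counts as old or young, how old the leaves were in days, or which plants a replicate holds. The series description gives a randomized complete block layout with 3 replicates, but whether a replicate number marks a block is not stated. No source says that replicates came from separate plants. A p-value here sets a difference between the ages against the variation among these samples, which may include technical variation. Each sample is labelled as leaf, although the text on RNA extraction mentions nodules. Neither label could be checked against marker genes, because the gene IDs of the deposited table carry no names.

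As background, a legume leaf begins as a sink that imports sugar and nitrogen while its cells divide, expand and build chloroplasts. Once expanded it exports sugar, and later in its life it dismantles chloroplast protein and sends the nitrogen to younger organs. Mn serves water splitting in photosynthesis, moves poorly in the phloem and tends to accumulate in older leaves. None of these processes can be assigned here to an ID, and the results below describe how many genes differed, how strongly, at which expression level, and how repeatably.

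Levels were read as FPKM (fragments per kilobase of gene length, relative to the fragments sequenced in that library). Fragment totals recovered from the FPKM values ran from 17774122 to 20526701 in old leaves and from 18198700 to 21070730 in young leaves. A single fragment in a gene of 1 kb was worth 0.0487 to 0.0563 FPKM in old leaves and 0.0475 to 0.0549 FPKM in young leaves. The old replicates varied more than the young ones, with a median standard deviation (SD) per gene of 0.268 in old leaves, against 0.14 in young leaves, on the log2(FPKM + 1) scale. Old replicate 3 stood apart: its score on the second principal component, which held 13.3% of the variance, was -54.4, against 21.7 and 43.4 for old replicates 1 and 2. The first component held 75.8% of the variance and separated the ages, with old leaves at 58.1, 70.4 and 90.9 and young leaves at -80.3, -66 and -73.1.

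Many genes differed between old and young leaves, in both directions. Of 39811 genes listed, 26033 reached 1 FPKM in 3 or more of the 6 libraries and were tested with limma on log2(FPKM + 1). Of these, 8860 differed at a Benjamini-Hochberg adjusted p below 0.05, which is 34.0% of the genes tested. A total of 5146 genes (19.8%) were higher in old leaves, and 3714 genes (14.3%) were lower in old leaves. The count rested on every young library, since it was 4745 without young replicate 1, 5776 without young replicate 2 and 5360 without young replicate 3, whereas leaving out an old library gave 8009 to 9394. Log2 differences are given as old minus young throughout and are smaller than the true change where FPKM is low. The 3 old values lay all above the 3 young values in 8680 genes (33.3%) and all below them in 4976 (19.1%), together 13656 genes (52.5%), which included 8845 of the 8860 called genes. In bulk tissue, fewer cells of a type and less RNA per cell cannot be told apart.

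The balance between the directions depended on how libraries were scaled and on single young libraries. The median log2 difference of all genes tested was 0.168 as deposited, and 63.1% of genes had a positive difference. Rescaling by median-of-ratios factors put the median at 0.00757 and gave 3853 genes higher and 4898 lower in old leaves, so that 44% of calls were higher instead of 58.1%. Quantile normalization gave 4629 higher and 4613 lower. Without young replicate 1 the counts were 2259 higher and 2486 lower, and without young replicate 3 they were 2501 higher and 2859 lower. No gene called under the deposited scaling was called in the opposite direction after median-of-ratios rescaling. Under the 3 scalings together, 3737 genes were called higher and 3611 lower each time.

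Counts of 2-fold differences were near equal in both directions, and those of larger differences were higher for genes lower in old leaves, although the order at 4-fold turned under 2 of the alternatives. At least 2-fold differences were called in 2177 genes (8.36%) higher and 2210 (8.49%) lower in old leaves, and at least 4-fold differences in 524 (2.01%) higher and 622 (2.39%) lower. At least 8-fold differences were called in 107 genes (0.411%) higher and 195 (0.749%) lower, and at least 16-fold differences in 28 (0.108%) higher and 75 (0.288%) lower. Leaving out each library in turn left between 420 and 673 genes at least 4-fold higher and between 600 and 674 at least 4-fold lower. The rises outnumbered the falls without old replicate 1 (673 higher and 661 lower) and with a mean of at least 5 FPKM (415 higher and 382 lower). Among the genes at least 4-fold lower, 613 of 622 were called lower under all 18 settings compared, which leave out the stricter filter and the 2-fold threshold, and among those at least 4-fold higher, 435 of 524 were called higher under all 18.

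**Figure D1:**
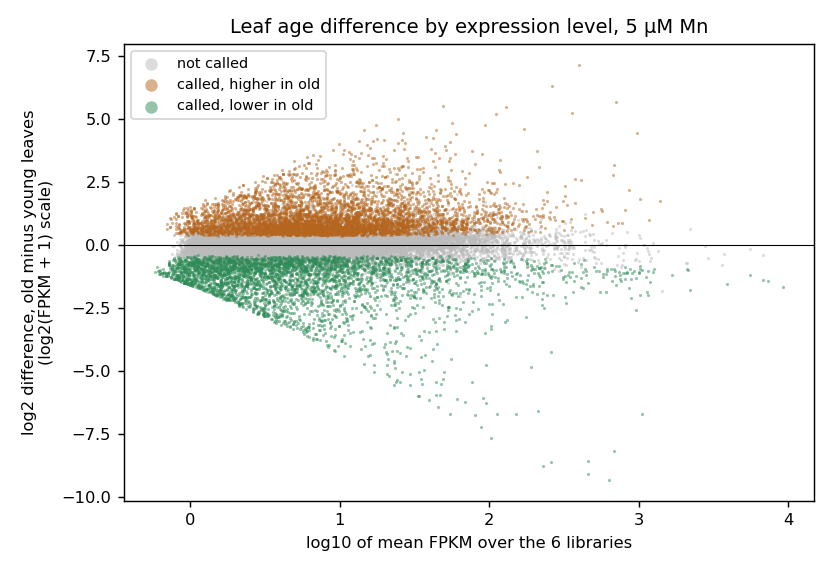
Each point is 1 of the 26033 genes tested. The horizontal axis is the log10 of the mean FPKM over the 6 libraries at 5 µM Mn, and the vertical axis is the log2 difference, old minus young, on the log2(FPKM + 1) scale. Brown points were called higher in old leaves, green points were called lower in old leaves, and grey points were not called. The largest falls reach a log2 difference of -9.31 and the largest rise 7.17.

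The 12 strongest falls took abundant transcripts of young leaves to low levels in old leaves. Glyma.11G098400.Wm82.a2.v1, a gene of 1148 bases whose ID places it on chromosome 11, had 1.704, 0.8063 and 0.6371 FPKM in old leaves, against 1366, 1174 and 1269 FPKM in young leaves. Its log2 difference was -9.31 (SE 0.21; limma, Benjamini-Hochberg adjusted p = 2.04e-06). All 3 old values were under 2 FPKM, all 3 young values exceeded 1000 FPKM, and the groups lay far apart. The next ID on the same chromosome, Glyma.11G098500.Wm82.a2.v1 (622 bases), behaved alike. It had 1.348, 0.7832 and 0.1809 FPKM in old leaves, against 1125, 826.2 and 793.2 FPKM in young leaves, a log2 difference of -9.05 (SE 0.27; limma, Benjamini-Hochberg adjusted p = 3.92e-06). Whether the 2 neighbours are near-identical copies that share fragments cannot be read from the table.

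The gene with the third strongest fall had 0.03654, 0.03184 and 0.07354 FPKM in old leaves, against 557.4, 423.7 and 388.7 FPKM in young leaves. Its old values correspond to 1 or 2 fragments a library, so its old level is a trace at most. The gene with the sixth strongest fall kept a measurable old level, with 4.382, 4.094 and 2.922 FPKM in old leaves, against 1376, 1405 and 1280 FPKM in young leaves. Over the 12 genes, log2 differences ran from -9.31 to -6.69 with SEs of 0.138 to 0.387. Mean levels were 0.0128 to 3.8 FPKM in old leaves, below 1 FPKM in 7 of the 12, and 108.6 to 1354 FPKM in young leaves. Replicates differed little on these genes in young leaves, with a median coefficient of variation of 0.49 in old leaves and 0.159 in young leaves.

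The 12 strongest rises reached mean levels of 35.0 to 1389 FPKM in old leaves and varied more between replicates. Glyma.14G195000.Wm82.a2.v1 (2176 bases, chromosome 14 by its ID) had 852.5, 823 and 695.9 FPKM in old leaves, against 1.793, 4.087 and 10.51 FPKM in young leaves. Its log2 difference was 7.17 (SE 0.46; limma, Benjamini-Hochberg adjusted p = 9.11e-05). The 3 old values were of similar size and lay far above all young values, which themselves differed several fold. Glyma.16G170100.Wm82.a2.v1 (988 bases, chromosome 16 by its ID) had 416.8, 257.2 and 880.6 FPKM in old leaves, against 2.558, 22.77 and 1.153 FPKM in young leaves. Its log2 difference was 6.33 (SE 0.88; limma, Benjamini-Hochberg adjusted p = 0.00191). Old replicate 3 was highest and young replicate 2 was highest, and the groups did not overlap.

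Of that arrangement, the place of young replicate 2 was more frequent among the strongest rises than over all genes tested. Old replicate 3 had the highest old value in 8 of the 12 genes, near its 60.0% of all genes tested. Young replicate 2 had the highest young value in 9 of the 12, beside 44.5% of all genes tested. The gene with the third strongest rise had 1117, 438.1 and 2611 FPKM in old leaves, against 6.089, 40.3 and 31.17 FPKM in young leaves. The gene of rank 5 had 104.9, 92.22 and 564.2 FPKM in old leaves, against 1.151, 15.42 and 0.7326 FPKM in young leaves. Old replicate 3 was not the highest old library in the gene of rank 7. That gene had 166.7, 244.2 and 236.3 FPKM in old leaves, against 2.69, 6.886 and 5.42 FPKM in young leaves. Over the 12 genes, log2 differences ran from 4.6 to 7.17 with SEs of 0.302 to 1.13. The median coefficient of variation was 0.763 in old leaves and 0.826 in young leaves.

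**Figure D2:**
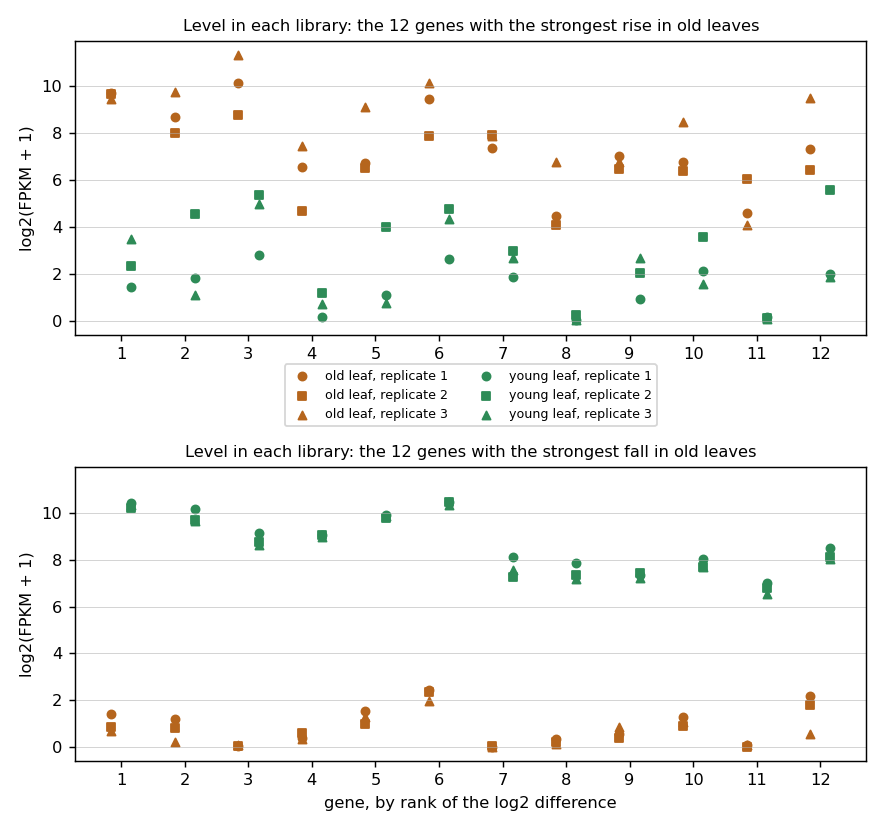
Levels in each of the 6 libraries at 5 µM Mn, as log2(FPKM + 1), for the 12 genes with the strongest rise (upper panel) and the 12 with the strongest fall (lower panel) in old leaves, ranked by the log2 difference on the horizontal axis. Brown symbols are old leaves and green symbols young leaves, with a symbol shape for each replicate. The symbols of a group lie close together for the falls, where the median coefficient of variation in young leaves was 0.159, and spread widely for the rises, where it was 0.826.

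Among all 524 genes at least 4-fold higher in old leaves, young replicate 2 had the highest young value in 69.1%, against 44.5% of all genes tested. Old replicate 3 had the highest old value in 62.8% of the 524, close to its 60.0% over all genes tested. For the 622 genes at least 4-fold lower, old replicate 3 was highest in 41.8% and young replicate 2 in 29.3%. The part of these libraries in the strength of the rises was not tested beyond leaving them out. Without old replicate 3 and young replicate 2 together, 461 genes were at least 4-fold higher in old leaves and 646 at least 4-fold lower.

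A set of genes was read in 1 leaf age and was at or near 0 in the other. In 25 genes, all 3 old values were at least 1 FPKM and all 3 young values below 0.1 FPKM. The reverse pattern, with all 3 old values below 0.1 FPKM and all 3 young values at least 1 FPKM, held in 171 genes. The old-only genes were low, with a median level of 3.69 FPKM in old leaves, and 1 of them averaged at least 10 FPKM. The young-only genes had a median level of 2.75 FPKM in young leaves, but 13 averaged at least 10 FPKM and 3 at least 100 FPKM there, up to 456.6 FPKM. The excess on the young side was also seen with an upper limit of 0.2 FPKM (63 old-only and 302 young-only genes), with 0.05 FPKM (11 and 104) and after median-of-ratios rescaling (22 and 210). It was also seen without old replicate 3 (28 and 232) and without young replicate 2, where the old-only count was 58 and the young-only count 177.

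No fragment at all was counted in the other age for 8 of the 25 old-only and 61 of the 171 young-only genes. For these genes alone, a lower bound of the fold was set against a floor of 3 fragments over the 3 libraries at 0. Among the 8, the highest bound was 262.8-fold higher in old leaves (4.98, 3.88 and 9.62 FPKM in old leaves). Among the 61, the highest bound was 1286.8-fold lower in old leaves (129.9, 73.1 and 34.8 FPKM in young leaves). Young-only genes with a few old fragments were not ranked this way. These floors cover counting error only.

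Among the most abundant transcripts, more genes were lower than higher in old leaves. Of 45 genes with a mean of at least 1000 FPKM over the 6 libraries, 21 were lower in old leaves and 3 were higher, whereas over all genes tested 14.3% were lower and 19.8% higher. The median log2 difference of the 45 genes was -0.76. The most abundant of them had 5240, 5282 and 3224 FPKM in old leaves, against 14240, 14090 and 13320 FPKM in young leaves, a log2 difference of -1.64 (SE 0.30; limma, Benjamini-Hochberg adjusted p = 0.00636). The gene of rank 2 had 4905, 4708 and 2667 FPKM in old leaves, against 10900, 10620 and 9999 FPKM in young leaves. Both had every old value below every young value. The gene of rank 4 overlapped, with 7717, 6923 and 3534 FPKM in old leaves, against 7502, 7172 and 7612 FPKM in young leaves, and was not called (limma, Benjamini-Hochberg adjusted p = 0.444).

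Old replicate 3 differed from the other old libraries in this class. It was the lowest old library in 41 of the 45 genes, with a median ratio of 0.621 to the mean of old replicates 1 and 2, whereas that ratio was 1.21 over all genes tested. Without it, 28 of the 45 genes were lower in old leaves and 6 higher, beside 4332 lower and 5062 higher of all 26033 genes tested. Leaving out a young replicate reduced the counts to between 7 and 9 lower and between 2 and 3 higher. Over all genes tested it gave between 2486 and 2859 lower and between 2259 and 3091 higher. Quantile normalization gave 12 lower and 9 higher, beside 4613 lower and 4629 higher of all genes tested. A replicate block gave 13 lower and 3 higher, beside 3150 lower and 3711 higher. No filter on low values gave 7 lower and 2 higher, beside 5101 lower and 5204 higher of a larger number of genes. A 2-fold threshold gave 1 lower and 0 higher, beside 722 lower and 332 higher.

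By expression level, the share called lower in old leaves was smallest in the middle of the range. It was 23.9% of the 4155 genes with a mean under 2 FPKM and 10.3% of the 9918 genes between 5 and 20 FPKM. It was 24.3% of the 771 genes from 100 to 1000 FPKM and 46.7% of the 45 genes at 1000 FPKM or more. The share called higher in old leaves was largest from 20 to 100 FPKM, at 24.1% of the 4020 genes, and was 13.7% under 2 FPKM.

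At 5 µM Mn, the fragments of old leaves were spread over more genes. The 20 genes with the highest mean FPKM over the 6 libraries were read as 1 fixed set. They held 9.98, 9.35 and 5.32% of fragments in old leaves (8.22 ± 2.53, SD, n = 3), against 13.4, 12.9 and 13.8% in young leaves (13.4 ± 0.446, SD, n = 3). The groups did not overlap, and a 2-sided exact permutation test gave p = 0.1, the smallest that 3 against 3 libraries allow. The most abundant genes that together held 50% of fragments numbered 1049, 1017 and 1766 in old leaves and 786, 886 and 691 in young leaves. Old replicate 3 was the most even library at 5 µM Mn, and old replicates 1 and 2 were also more even than every young library there. Genes at 100 FPKM or more numbered 835, 899 and 898 in old leaves and 738, 761 and 755 in young leaves. At 100 µM Mn, the genes that held 50% of fragments had the reverse order, 1337, 1277 and 1278 in old leaves and 1347, 1456 and 1505 in young leaves. The same 20 genes held 8.03, 8.61 and 8.18% in old leaves there, against 10.1, 9.7 and 8.84% in young leaves. Genes at 100 FPKM or more overlapped there, at 830, 797 and 774 in old leaves and 779, 776 and 793 in young leaves.

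The number of genes detected had the opposite order. At an equal depth of 17773234 fragments, 34779, 34597 and 35098 genes had a fragment in old leaves, against 35953, 36128 and 35474 genes in young leaves, again without overlap (2-sided exact permutation p = 0.1). The number of genes with at least 1 FPKM overlapped, at 24638, 24089 and 25615 in old leaves and 25264, 25703 and 24564 in young leaves.

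**Figure D3:**
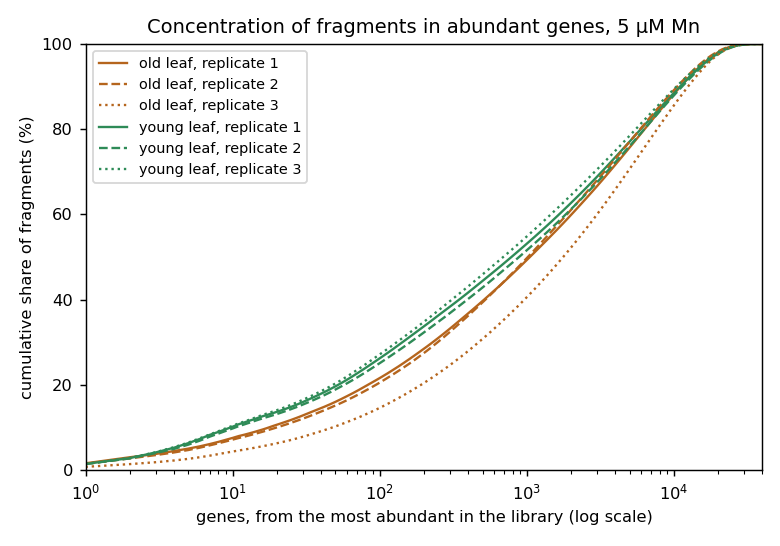
Cumulative share of fragments (vertical axis, %) held by the most abundant genes of each library, counted along the horizontal axis on a log scale, at 5 µM Mn. The 3 old libraries (brown) run below the 3 young libraries (green) at 3 genes and on to 2110 genes but not at the first 2 genes. Old replicate 3, with 6.134% of its fragments in its 19 most abundant genes, is the lowest in that range.

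As a share of sequencing, the called genes were a large part of both leaves. The 5146 genes higher in old leaves took 23.2, 25.5 and 28.7% of fragments in old leaves, against 10.4, 11.1 and 10.7% in young leaves. The 3714 genes lower in old leaves took 13.5, 11.5 and 9.62% in old leaves, against 30.4, 28.6 and 29.9% in young leaves. These genes were chosen by the same libraries, so the shares describe the size of the change and do not test it. In the 6 libraries at 100 µM Mn, which did not choose them, the first set took 24.6 to 26.0% in old leaves and 13.7 to 16.6% in young leaves. The second set took 11.6 to 12.7% in old leaves and 23.5 to 27.4% in young leaves there.

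Most of the falls at 5 µM Mn were also called at 100 µM Mn, and the shares were smaller for the rises. At 100 µM, 13529 of 27271 genes tested (49.6%) differed with leaf age, 6000 (22.0%) higher and 7529 (27.6%) lower in old leaves. Of the 3714 genes lower in old leaves at 5 µM, 3038 (81.8%) were also called lower at 100 µM, and of the 5146 genes higher, 2898 (56.3%) were also called higher. For at least 4-fold differences the shares were 601 of 622 (96.6%) for the falls and 324 of 524 (61.8%) for the rises. Of the at least 4-fold falls none was called in the opposite direction at 100 µM, and of the at least 4-fold rises 24 were.

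Sizes were compared in the same classes. Genes at least 4-fold lower in old leaves at 5 µM had a median log2 difference of -2.6 at 5 µM and -2.64 at 100 µM, whereas genes at least 4-fold higher had 2.46 at 5 µM and 1.13 at 100 µM. Genes chosen for a large difference in 1 set of libraries tend to show a smaller one in another, so the reverse choice was read as well. Genes at least 4-fold lower at 100 µM had a median of -2.56 at 100 µM and -2.24 at 5 µM, and 82.3% of the 827 were called lower at 5 µM. Genes at least 4-fold higher at 100 µM had a median of 2.48 at 100 µM and 2.03 at 5 µM, and 88.5% of the 262 were called higher at 5 µM. With median-of-ratios rescaling, 95.8% of the at least 4-fold falls and 63.9% of the at least 4-fold rises at 5 µM were called at 100 µM. Without old replicate 3 at 5 µM the shares were 96.6% for the falls and 69.8% for the rises. Across 25443 genes tested at both levels, which share gene lengths and a pipeline but no library, Pearson's r of the log2 differences was 0.764.

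**Figure D4:**
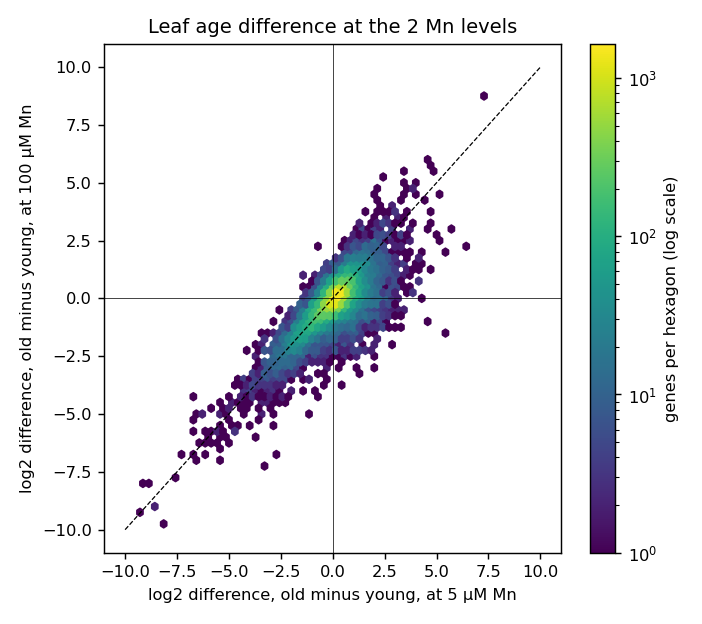
Log2 difference, old minus young, at 5 µM Mn (horizontal axis) and at 100 µM Mn (vertical axis) on the log2(FPKM + 1) scale for 25443 genes, with colour giving the number of genes per hexagon on a log scale. The dashed line marks equal differences. Genes on the lower left lie along the line, with a median of -2.6 at 5 µM and -2.64 at 100 µM for falls of at least 4-fold, and genes on the right lie mostly below it.

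**Figure D5:**
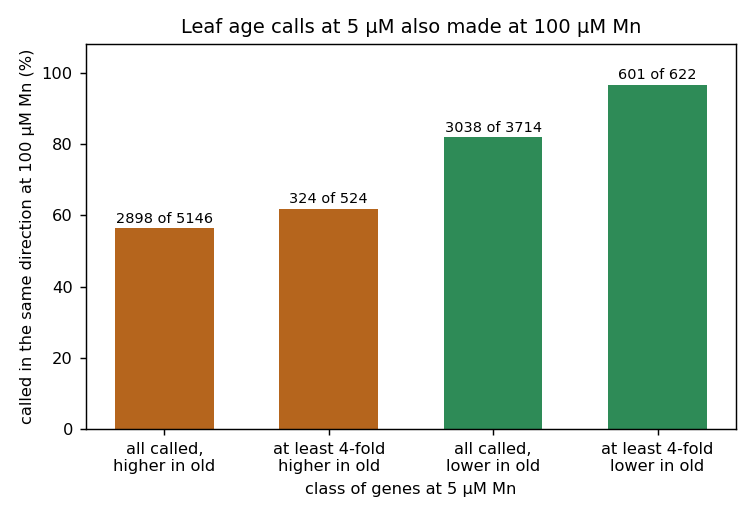
Share (vertical axis, %) of genes called at 5 µM Mn that were called in the same direction at 100 µM Mn, for all called genes and for those with at least a 4-fold difference. Brown bars are genes higher in old leaves and green bars genes lower in old leaves, with the numbers of genes above each bar. The shares are 56.3 and 61.8% for the rises and 81.8 and 96.6% for the falls.

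The difference between the leaf age effects at the 2 Mn levels was tested directly over all 12 libraries. It was called in 981 of 26033 genes (3.77%), in 794 (3.05%) toward a more positive value at 5 µM and in 187 (0.718%) toward a more negative one. Of the at least 4-fold rises at 5 µM, 166 (31.7%) were called for this difference, and of the at least 4-fold falls, 41 (6.59%). These genes were chosen by the 5 µM values, which also enter the difference. Of genes chosen at 100 µM instead, 27 (10.3%) of the at least 4-fold rises and 105 (12.7%) of the at least 4-fold falls were called for it. Among the 794 genes, 149 were called higher in old leaves at 5 µM and lower in old leaves at 100 µM. The count depended on single libraries. At 5 µM it was 2188 without old replicate 1, 2814 without old replicate 2, 51 without young replicate 1 and 22 without young replicate 3. At 100 µM it was 557, 12 and 106 without old replicates 1, 2 and 3, and 580, 401 and 18 without young replicates 1, 2 and 3. Without old replicate 3 or young replicate 2 at 5 µM it was 1107 or 875. Positive calls made up 80.9% with the deposited scaling, 61.6% after median-of-ratios rescaling and 54.1% after quantile normalization.

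The named genes were called for leaf age at 100 µM as well. Glyma.11G098400.Wm82.a2.v1 had 0.864, 0.7517 and 0.9492 FPKM in old leaves at 100 µM, against 1435, 939.4 and 832.2 FPKM in young leaves there. Glyma.14G195000.Wm82.a2.v1 had 655.9, 692.5 and 712.7 FPKM in old leaves, against 0.3047, 1.965 and 0.1986 FPKM in young leaves. Glyma.11G098500.Wm82.a2.v1 had 0.08393, 0.2601 and 0 FPKM in old leaves, against 410.7, 296.2 and 223.6 FPKM in young leaves. All 3 kept their order and did not overlap between ages at either Mn level. Glyma.16G170100.Wm82.a2.v1 was less separated, with 1956, 1765 and 1772 FPKM in old leaves at 100 µM, against 272.5, 539.1 and 402.5 FPKM in young leaves. Its log2 difference was 4.10 larger at 5 µM (SE 1.03), which missed the threshold (limma, Benjamini-Hochberg adjusted p = 0.0509). It passed that threshold under 6 of 19 alternatives, among them leaving out young replicate 2 at 5 µM, where the value was 5.14.

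Among the 12 strongest rises at 5 µM, 10 were called higher in old leaves at 100 µM too, beside 61.8% of all at least 4-fold rises. All 12 of the strongest falls were called lower there, beside 96.6% of all at least 4-fold falls. The gene with the fourth strongest rise was called the other way. At 5 µM it had 95.3, 24.97 and 173.8 FPKM in old leaves, against 0.1531, 1.325 and 0.661 FPKM in young leaves. At 100 µM it had 5.962, 11.72 and 10.9 FPKM in old leaves, against 20.6, 24.22 and 42.8 FPKM in young leaves. The difference between both leaf age effects was 7.03 on the log2 scale (SE 0.81; limma, Benjamini-Hochberg adjusted p = 0.00956). The old and young values did not overlap at either Mn level.

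The genes of 1 leaf age kept that order at 100 µM in nearly every case, though often less sharply. Of the 171 young-only genes, all old values lay below all young values at 100 µM in 169. All that met the filter there, 112, were called lower in old leaves, against 27.6% of all genes tested at 100 µM. They met it through their 3 young values alone, so these calls were close to fixed by the filter and do not test the pattern. The full pattern, below 0.1 FPKM in old leaves and at least 1 FPKM in young leaves, recurred in 83. In 59 of the 171 a young library at 100 µM was under 1 FPKM, so these genes missed the filter and were not tested there. No old mean at 100 µM exceeded 0.323 FPKM. Of the 25 old-only genes, 24 kept the order, and 23 were called higher in old leaves at 100 µM, against 22.0% of all genes tested. In all but 1 of the 25, the old values alone sufficed for the filter, so these calls are a description only. The full pattern recurred in 5 of the 25. In 4 of the 25, all 3 young libraries at 100 µM reached at least 1 FPKM. How many of all genes did not overlap between ages at 100 µM was not counted.

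Strongly changed genes were shorter than the genes tested as a whole, given here as a description with no test. Of the 6506 longest genes, from 2581 bases upward, 1.18% were at least 4-fold higher and 1.11% at least 4-fold lower in old leaves, whereas of the 6511 shortest, up to 1338 bases, 2.99% were higher and 3.67% lower. Median lengths were 1560 bases for the at least 4-fold rises, 1524 bases for the at least 4-fold falls and 1888 bases for all genes tested. For all called genes, 4 classes of length with near-equal numbers of genes were closer, from 18.7 to 20.2% higher and from 12.8 to 15.6% lower. By the chromosome number in the ID, between 17.7 and 21.4% of genes were called higher and between 11.1 and 16.3% lower on each of the 20 chromosomes.

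Neighbouring IDs were read side by side, again with no test. Over 13222 pairs of consecutive IDs that were both tested, Pearson's r of the log2 differences was 0.114. A gene was at least 4-fold higher in old leaves in 12.6% of cases when its neighbour was, against 1.91% of all genes in pairs, and at least 4-fold lower in 6.43% against 2.23%. Both genes were at least 4-fold higher in 32 pairs and at least 4-fold lower in 19 pairs. Unbroken runs of 3 such IDs occurred 4 times among the rises, on chromosomes 4, 11, 17 and 19, and a single time among the falls, on chromosome 17. The run on chromosome 4 had mean levels of 13.9 to 215.7 FPKM in old leaves, against 0.447 to 5.0 FPKM in young leaves, with log2 differences of 2.63 to 5.22 at 5 µM and 3.18 to 4.39 at 100 µM. The run of rises on chromosome 17 had log2 differences of 3.1 to 3.81 at 5 µM but of -1.33 to 0.153 at 100 µM. On chromosome 11 the run had 2.21 to 2.87 at 5 µM and -0.334 to 0.916 at 100 µM. On chromosome 19 it had 2.11 to 2.35 at 5 µM, and -0.144 was both the lowest and the highest value at 100 µM. The run of falls on chromosome 17 had log2 differences of -8.75 to -2.46 at 5 µM and of -8.06 to -2.53 at 100 µM. How far fragments shared between neighbouring copies contribute to these pairs was not tested.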

How the data were processed

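The authors deposited 1 table of FPKM for 39811 genes in 12 libraries. The tools named, per the submitters' processing notes and with neither role nor order, are HISAT2 2.1.0, Bowtie2 2.2.3 and DESeq2 1.6.3. Genome build, annotation, strand setting and the treatment of fragments shared by near-identical copies, frequent in soybean, are not stated in any source used here, so values of genes with close copies or overlapping partners are uncertain. IDs end in Wm82.a2.v1. Of 39811 IDs, 0 matched the RefSeq genes of Glycine_max_v4.0, so genes have no names or roles here, at most 2 IDs per direction are printed, no sequence is shown, and 33 prepared pathway and marker lists could not be applied (0 tested).

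Library totals, gene lengths and fragments were recovered from the FPKM ratios. All 39811 genes gave whole fragments in all 12 libraries (tolerance 1e-06; largest deviation 5.82e-11). Limma 3.58.1 (R 4.3.3) with a variance trend was fitted to log2(FPKM + 1), with a pseudocount of 1, for the 6 libraries at each Mn level and, for the difference between levels, for all 12. Genes needed 1 FPKM or more in 3 or more of the 6 libraries. Tests were 2-sided, adjusted by Benjamini-Hochberg over all genes tested, and the code was tested on simulated data. Limma's voom on the recovered fragments called 8817 genes at 5 µM. The printed IDs are the 2 largest differences in each direction among called genes with a mean of at least 5 FPKM in either age and no overlap. The 12 strongest genes per direction follow the same rule. The comparison, lists and rules were chosen with earlier results of these data known. Other pseudocounts, filters, scalings, variance models, a 2-fold threshold, a replicate block and leaving out each library were tried as alternatives. The limits for genes of a single age, the joint omission of old replicate 3 and young replicate 2, and the alternatives for calls at both Mn levels were added after seeing the data.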

Additional observations from a re-analysis of the deposited data

Results flagged for a closer look

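The difference between the leaf age effect at 5 µM and that at 100 µM Mn passed limma's test in 981 of 26033 genes, 794 of them more positive at 5 µM and 187 more negative. The largest positive difference, 7.03 on the log2 scale, belonged to a gene higher in old leaves at 5 µM and lower in old leaves at 100 µM. Another gene, with 70.13, 67.31 and 125.8 FPKM in old leaves at 5 µM against 14.91, 80.99 and 5.732 FPKM in young leaves, overlapped between ages at 5 µM. It had 27.78, 26.97 and 28.79 FPKM in old leaves at 100 µM against 176.6, 259.1 and 258.7 FPKM in young leaves, a difference of 5.03 between both effects. The largest negative difference, -3.15, belonged to a gene with 2.705, 3.592 and 3.63 FPKM in old leaves at 5 µM against 6.584, 7.78 and 5.796 FPKM in young leaves. At 100 µM that gene had 76.02, 57.66 and 55.12 FPKM in old leaves against 8.578, 18.82 and 10.07 FPKM in young leaves.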

How the results depend on the processing

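At 5 µM, counts of called genes between 6959 and 12081 came from the other pseudocounts, no filter, both rescalings, the variance models, voom, the fit of 4 groups, and leaving out old replicate 3 with young replicate 2, against 8860. A mean of at least 5 FPKM gave 4999 (fewer genes tested) and a 2-fold threshold 1054. Leaving out 1 library gave 4745 to 9394. Leaving out young replicate 1 or 3 put the share of higher calls at 47.6 and 46.7%. The 2-fold threshold put it at 31.5%. At 100 µM, a mean of at least 5 FPKM gave 8283 calls against 13529, and leaving out 1 library 11025 to 12573. The difference between Mn levels gave 1736 calls with quantile normalization against 981, and 12 to 2814 without 1 library. Counts of at least 4-fold changes at 5 µM depended on the pseudocount: 944 higher and 1372 lower with 0.1, 148 higher and 172 lower with 5. The difference between Mn levels for Glyma.11G098400.Wm82.a2.v1 turned to 0.12 with quantile normalization, and that for Glyma.11G098500.Wm82.a2.v1 to 0.33 with a pseudocount of 0.1, neither called. With a pseudocount of 5 Glyma.11G098500.Wm82.a2.v1 had -1.4 and was called (limma, Benjamini-Hochberg adjusted p = 0.028), and over its 19 alternatives 1 was called. Their cause was not tested.

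Replicate numbers are shared between groups, and the series description mentions randomized complete blocks, but no label says that a number marks a block. Deviations of old and young libraries with the same number correlated at 0.236, -0.102 and -0.146. Pairs with unlike numbers ran from -0.432 to 0.426, the highest being old replicate 3 with young replicate 2. These values do not show that the numbers pair the samples, and whether the numbers mark blocks is not known. With a replicate block, 6861 genes were called at 5 µM, 12618 at 100 µM and 502 for the difference between them, against 8860, 13529 and 981 without it.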
